A study of Mus musculus with 6 samples.

Results

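Prrx1, Prrx2, Tcf21, Twist1, Twist2, Snai1, Snai2, Zeb1, Zeb2 and Meox1 are transcription factor genes of mesenchymal cells, the loosely arranged, migratory cells from which connective tissue arises. These 10 genes were taken by symbol from the 26332 genes with values, and all 10 were among the 14584 genes tested, those reaching 10 normalized counts in 3 or more libraries. They were followed in nuclei of the left and right atria, pooled per mouse, stained for PCM1, a protein found around cardiomyocyte nuclei, and sorted for cardiomyocyte nuclei. The groups were 3 mice labelled Prrx1(R1A)-/- and 3 mice labelled control, all aged 8 to 12 weeks, with 1 nuclear RNA library each. The labels name the allele R1A and say neither what it removes nor on which strain it was bred. Column headers of the deposited counts call the Prrx1(R1A)-/- libraries hom and the controls wt, and the controls are given no further genotype. The series title places the study on a noncoding region that regulates Prrx1.

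Mesenchymal transcription factors switch on programmes of migration and matrix production, and several of them repress epithelial genes. PRRX1 and PRRX2 are paired-type homeodomain proteins, which bind DNA at short stretches with a TAAT core. TWIST1, TWIST2 and TCF21 are basic helix-loop-helix proteins that pair with E proteins and bind E-boxes, while SNAI1, SNAI2, ZEB1 and ZEB2 are zinc finger repressors that bind a subset of E-boxes. MEOX1 is a homeodomain protein of the embryonic somites. In the adult heart Tcf21 marks fibroblasts, which lie among the cardiomyocytes.

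Libraries held 10580961 to 14658584 reads, of which ribosomal RNA took 26.7 to 39.8% in Prrx1(R1A)-/- libraries and 12.0 to 46.5% in controls, the highest share being that of control replicate 1. All 12 markers of the labelled cell type were detected, though no unsorted library was there to compare them with. Their summed level was 808753 to 1511750 normalized counts in Prrx1(R1A)-/- nuclei and 302857 to 583459 in controls. Much of it was 1 gene, Ttn, with a mean of 640141 over all 6 libraries. The mean sums were 1213998 in Prrx1(R1A)-/- nuclei and 443505 in controls. The sort did not remove fibroblast RNA, since all 20 fibroblast markers were detected in every library, with sums of 55398 to 60117 in Prrx1(R1A)-/- nuclei and 68607 to 108461 in controls. The ranges of the cardiomyocyte sums and of the fibroblast sums were each separate between the genotypes. In such bulk samples fewer cells of a type and less RNA per cell cannot be told apart.

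Prrx1 was the 1 gene of the 10 whose groups did not overlap. It had 200.8, 194.4 and 182.9 normalized counts in Prrx1(R1A)-/- replicates 1, 2 and 3, against 415.2, 334.8 and 282.1 in control replicates 1, 2 and 3. The highest Prrx1(R1A)-/- library lay below the lowest control, and the means were 192.7 ± 9.07 in Prrx1(R1A)-/- nuclei and 344.0 ± 67.0 in controls (SD, n = 3 each), a difference of −44.0%. Groups did not overlap in this direction for 1219 of 14584 genes (8.36%). The log2 fold change of −0.82 ± 0.25 (SE, n = 3 each) did not pass limma's test across all genes (adjusted p = 0.270), and 2.8% of genes had an unadjusted p as small or smaller. The exact permutation p was 0.1, the smallest possible with 3 against 3 libraries. Over 16 alternatives the log2 fold change stayed between −0.95 and −0.67 and the adjusted p between 0.066 and 0.681.

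Prrx1 was more evenly measured among Prrx1(R1A)-/- libraries than among controls. Its 3 Prrx1(R1A)-/- libraries, with 162 to 185 reads each, had a coefficient of variation of 4.71%, below the 7.54% that counting alone gives at that depth. The 3 controls varied by 19.5%, against 5.09% from counting. Controls also varied more than Prrx1(R1A)-/- libraries for Tcf21, Twist1, Snai1, Snai2, Zeb2 and Meox1. They varied less for Prrx2, Twist2 and Zeb1. The gene (identifier 18933) occupies chromosome 1 from 163245119 to 163313710 on the minus strand of GRCm38 and has 11066 exonic bases, with no exonic overlap by another gene.

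The Prrx1 entries of both deposited tables depart from those of other genes. In the table of counts its value in control replicate 3 is the 1 value, over all genes and libraries, that is no whole number of reads (380.427 reads). The authors' deposited table of 1900 genes puts the Prrx1 log2 fold change at −1.17 and its adjusted p at 0.0034, which is below its own unadjusted p of 0.0152. In the authors' deposited table its Wald score has a size of 2.43, whereas its fold change divided by its standard error is −4.33, and its mean is 286.333, whereas its 6 deposited counts average 268.4. Prrx1 was the 1 gene of the 1900 in each of these 3 checks, with a tolerance of 1% for the score and the mean. A control replicate 3 value of 389.8 normalized counts would give the authors' mean, but this is 525.69 reads and not whole either. How these entries arose was not tested, and values of Prrx1 that rest on control replicate 3 carry that doubt. Without that library the groups stayed separate, and limma gave a log2 fold change of −0.95 ± 0.31 (adjusted p = 0.329).

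The sequence just before the Prrx1 start site is shown because the gene carries the allele's name and encodes a protein that reads TAAT. It covers chr1:163313651-163313900 (GRCm38.p6, minus strand; RefSeq), 250 bases up to the RefSeq start, with TAAT and its reverse complement ATTA in capitals:
Prrx1: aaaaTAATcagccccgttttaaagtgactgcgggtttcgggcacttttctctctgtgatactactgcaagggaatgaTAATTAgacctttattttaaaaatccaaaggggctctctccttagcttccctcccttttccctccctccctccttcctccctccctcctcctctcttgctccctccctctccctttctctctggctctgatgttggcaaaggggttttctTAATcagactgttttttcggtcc
The window holds 4 matches, of which TAAT and ATTA overlap in the stretch TAATTA. At least 1 match occurred in 54.9% of all 32851 such windows, and at least 4 in 9.62%. No CANNTG, the general E-box, which reads the same on both strands, lies in the window. GENCODE, from which the gene's position above is taken, ends the gene at 163313710, so 60 bases of the RefSeq window, with 1 of the 4 matches, lie inside the gene as given there. These are matches of letters, not sites of binding.

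**Figure D1:**
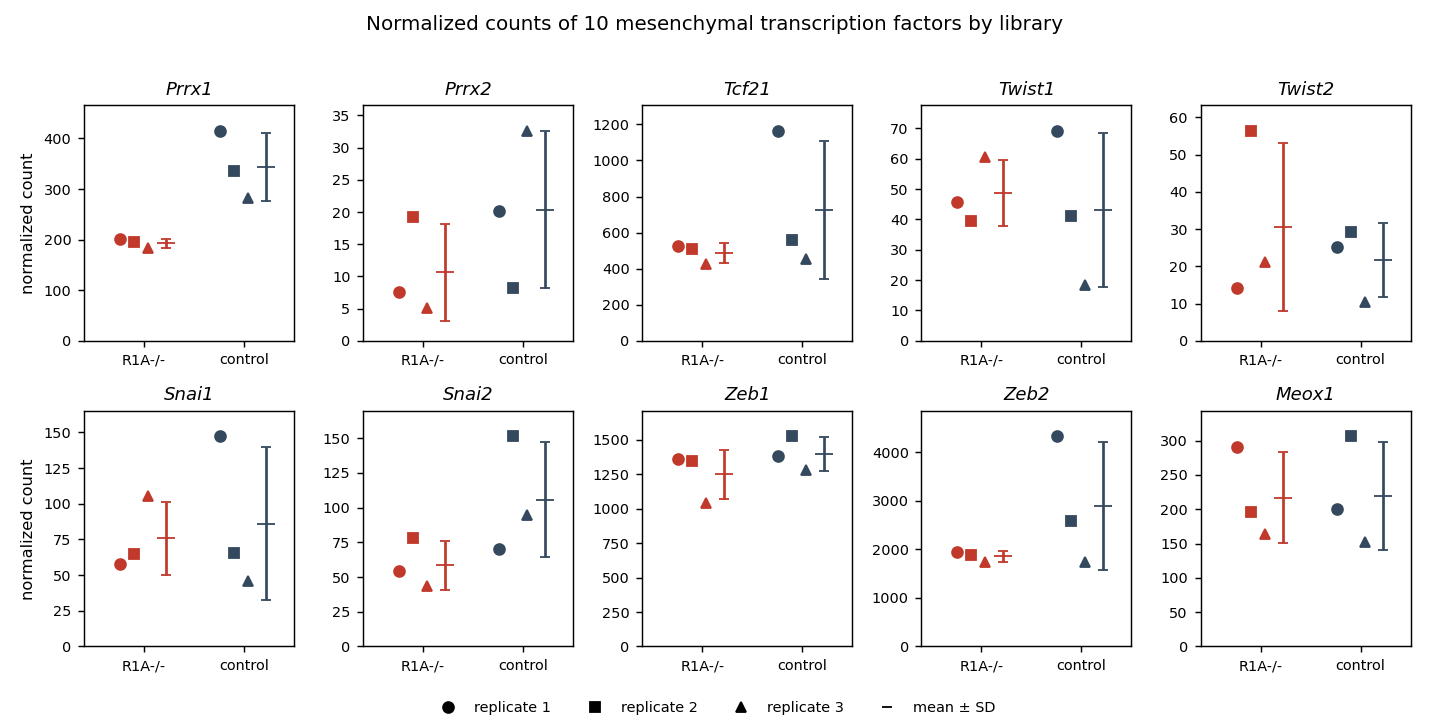
Normalized counts of each gene in each library (circles, squares and triangles are replicates 1, 2 and 3, bars the mean ± SD of 3 libraries), with Prrx1(R1A)-/- on the left of each panel and its own linear axis from 0. The groups are apart for Prrx1 alone, and control replicate 1 stands above the rest for Tcf21, Zeb2 and Snai1.

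Prrx2, the close relative of Prrx1, was near the limit of detection. It had 7.60, 19.2 and 5.05 normalized counts in the Prrx1(R1A)-/- libraries, which are 7, 16 and 5 reads, against 20.1, 8.24 and 32.6 in controls, which are 16, 11 and 44 reads. The groups overlapped. The log2 fold change of −0.88 ± 0.77 (adjusted p = 0.672 by limma) did not pass. Its libraries had coefficients of variation of 71.0% in Prrx1(R1A)-/- nuclei and 60.0% in controls, where counting alone gives 32.7% and 20.6%. Per exonic length, Prrx1 lay above Prrx2 in every library, by 1.79- to 6.41-fold in Prrx1(R1A)-/- nuclei and by 1.53- to 7.20-fold in controls. Prrx2 lies on chromosome 2 from 30834972 to 30881251 (plus strand).

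Tcf21, a basic helix-loop-helix factor required for cardiac fibroblasts to form, had 524.4, 508.7 and 423.5 normalized counts in Prrx1(R1A)-/- nuclei, against 1165, 561.0 and 453.1 in controls. Control replicate 1 stood 2.30-fold above the mean of the other controls, and the other 5 libraries lay between 423.5 and 561.0. By limma Tcf21 had a log2 fold change of −0.46 ± 0.32 (adjusted p = 0.587) with all libraries and −0.06 ± 0.20 without control replicate 1. Summed fibroblast markers were 108461 in control replicate 1, against 78716 and 68607 in the other controls; their part in the Tcf21 value was not tested. Tcf21 lies on chromosome 10 from 22817281 to 22820174 (minus strand).

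Twist1 and Twist2, which drive mesenchyme formation and hold back differentiation in the embryo, were scarce. Twist1 had 45.6, 39.6 and 60.6 normalized counts in Prrx1(R1A)-/- nuclei, against 69.2, 41.2 and 18.5 in controls. Its controls spanned a wider range than its Prrx1(R1A)-/- libraries and enclosed them. Twist2 had 14.1, 56.4 and 21.2 in Prrx1(R1A)-/- nuclei, against 25.2, 29.2 and 10.4 in controls, with Prrx1(R1A)-/- replicate 2 the highest and the groups overlapping. The log2 fold changes were 0.34 ± 0.52 for Twist1 and 0.37 ± 0.66 for Twist2, neither passing (adjusted p = 0.832 and 0.860 by limma), and both turned negative without control replicate 3 (−0.16 and −0.07). Twist1 lies on chromosome 12 from 33957671 to 33959829 (plus strand). Twist2 lies on chromosome 1 from 91801461 to 91848028 (plus strand) and shares exonic bases with Gm29100 on the opposite strand.

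Snai2 and Snai1 are related repressors whose levels varied widely between libraries. Snai2, which represses epithelial adhesion genes, had 54.3, 78.0 and 43.5 normalized counts in Prrx1(R1A)-/- nuclei, against 70.5, 151.3 and 94.9 in controls. A single library of each genotype crossed over: Prrx1(R1A)-/- replicate 2 lay above control replicate 1. Its log2 fold change of −0.81 ± 0.40 did not pass (adjusted p = 0.449 by limma). Snai1, the founding member of that repressor family, had 57.5, 64.8 and 105.1 in Prrx1(R1A)-/- nuclei, against 147.2, 65.2 and 46.0 in controls. Its groups overlapped, with control replicate 1 at 2.65 times the mean of the other controls. By limma its log2 fold change of −0.06 ± 0.46 did not pass (adjusted p = 0.975) and turned to 0.41 without control replicate 1. The Snai2 to Snai1 ratio per exonic length was 0.757, 0.965 and 0.332 in Prrx1(R1A)-/- libraries and 0.384, 1.86 and 1.66 in controls, with control replicate 1 inside the Prrx1(R1A)-/- range. Snai2 lies on chromosome 16 from 14705852 to 14709385 (plus strand). Snai1 lies on chromosome 2 from 167538195 to 167542814 (plus strand).

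Snai1 was the 1 gene, of the 7 with a RefSeq window, that held a CANNTG before its start; 66.2% of all windows hold one. It is shown because SNAI1 itself binds E-boxes, with CANNTG in capitals, and covers chr2:167537945-167538194 (GRCm38.p6, plus strand):
Snai1: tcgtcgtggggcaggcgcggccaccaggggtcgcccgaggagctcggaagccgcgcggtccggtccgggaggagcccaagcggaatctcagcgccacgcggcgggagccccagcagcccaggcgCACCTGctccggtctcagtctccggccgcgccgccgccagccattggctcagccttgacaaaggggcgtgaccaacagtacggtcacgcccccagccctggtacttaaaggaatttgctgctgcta
TAAT or ATTA was present before 3 of the 7 genes, Prrx1, Twist2 and Zeb2.

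Zeb2 and Zeb1, zinc finger and homeodomain repressors of E-cadherin, were the most deeply counted of the 10, with 1030 to 3451 reads per library. Zeb2, which macrophages and endothelial cells also express, had 1953, 1889 and 1730 normalized counts in Prrx1(R1A)-/- nuclei, against 4323, 2585 and 1741 in controls. Prrx1(R1A)-/- libraries varied by 6.17% and controls by 45.7%, and control replicate 3 lay among the Prrx1(R1A)-/- libraries. By limma Zeb2 had a log2 fold change of −0.54 ± 0.29 (adjusted p = 0.490), and −0.19 ± 0.18 without control replicate 1. In the authors' deposited table it was −0.55 with an adjusted p of 0.356. That table lists 1900 of the 26332 genes with values, and Zeb2 and Prrx1 are the 2 of the 10 genes listed there. By its Wald test the unadjusted p was 0.0436 for Zeb2 and 0.0152 for Prrx1. Summed immune markers moved in the same order among controls (14240, 8903 and 7054, against 6479 to 7006 in Prrx1(R1A)-/- nuclei). So did summed fibroblast markers (108461, 78716 and 68607 in control replicates 1, 2 and 3). Summed endothelial and endocardial markers moved the other way among controls (22158, 23744 and 26262). The part of any of these cells in the Zeb2 value was not tested.

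Zeb1 was level by comparison, at 1364, 1344 and 1041 normalized counts in Prrx1(R1A)-/- nuclei against 1387, 1526 and 1281 in controls. The groups overlapped, and its log2 fold change of −0.17 ± 0.21 (adjusted p = 0.778 by limma) was smaller than its error. Per exonic length the Zeb2 to Zeb1 ratio was 0.737, 0.723 and 0.856 in Prrx1(R1A)-/- libraries and 1.61, 0.872 and 0.700 in controls. Zeb2 lies on chromosome 2 from 44983632 to 45117395 (minus strand). Zeb1 lies on chromosome 18 from 5591860 to 5775467 (plus strand). Both genes share exonic bases with opposite-strand genes (Gm10125 for Zeb1, Zeb2os and Gm27761 for Zeb2), so a part of their reads could belong to those.

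Meox1, a factor of somite patterning reported in activated cardiac fibroblasts of mice, had 291.0, 195.6 and 163.7 normalized counts in Prrx1(R1A)-/- nuclei, against 200.1, 306.3 and 152.0 in controls. The groups overlapped, and the means of 216.8 ± 66.2 in Prrx1(R1A)-/- nuclei and 219.5 ± 79.0 in controls (SD, n = 3 each) were the closest of the 10 genes. Its log2 fold change by limma, −5.0e-05, had an SE of 0.33 (adjusted p = 1.00). Meox1 lies on chromosome 11 from 101877510 to 101894374 (minus strand).

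**Figure D2:**
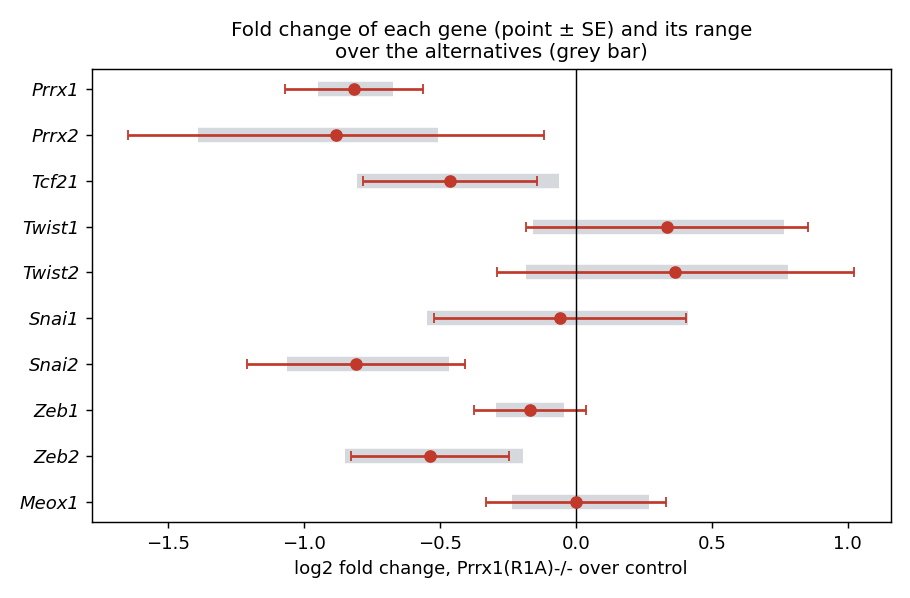
Log2 fold change of each gene, Prrx1(R1A)-/- over control (point, with SE), and the range over the processing alternatives (grey bar). The bars of Twist1, Twist2, Snai1 and Meox1 cross 0, while that of Prrx1 runs from −0.95 to −0.67.

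Across the 10 genes, 8 log2 fold changes lay below 0, as did 50.3% of all genes tested, with a median of −0.32 against −0.0036 over all genes. By limma 0 of 10 passed at an adjusted p under 0.05, as against 2 of all 14584 (0.0137%), and 1 of 10 (Prrx1) had an unadjusted p under 0.05 and lay below 0, against 5.25% of all genes. The quasi-likelihood test of edgeR on recovered reads also called 0 of the 10 and 0 of all genes (0.0%), with Prrx1 at an unadjusted p under 0.05, as were 5.64% of all genes below 0. With DESeq2 the count was 0 as well, against 2.13% of all genes with an adjusted p, which Prrx2 and Twist2 lacked; Prrx1, Snai2 and Zeb2 had an unadjusted p under 0.05, where 6.16% of all genes lay lower at that level. Without control replicate 1 the median of the 9 genes still tested was −0.06, with 6 below 0 and Prrx1 and Snai2 at an unadjusted p under 0.05; in that setting 11.2% of all genes were lower at that level and 9.16% passed after adjustment. A log2 fold change as low as that of Prrx1 or lower occurred in 7.49% of all genes.

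Levels of different genes were compared per kilobase of exon. In Prrx1(R1A)-/- nuclei Tcf21 led with 207 ± 23.1 normalized counts per kb (SD, n = 3), followed by Zeb1 (122 ± 17.6), Meox1 (97.3 ± 29.7) and Zeb2 (93.1 ± 5.75). In controls Tcf21 led too, with 309 ± 163, and Zeb2 (145 ± 66.0), Zeb1 (136 ± 12.0) and Meox1 (98.5 ± 35.4) came next. Prrx1 stood at rank 8 in Prrx1(R1A)-/- nuclei, with 17.4 ± 0.820 per kb, and at rank 7 in controls, with 31.1 ± 6.06. Going down the control order, all 9 neighbouring pairs overlapped in the controls, so no place in it is fixed by more than the spread. In Prrx1(R1A)-/- libraries 6 of the same 9 pairs were separate. The order was that of the controls in 4 of them, Tcf21 above Zeb2, Meox1 above Snai1, Snai2 above Prrx1 and Twist1 above Prrx2, and reversed in 2, Zeb1 above Zeb2 and Twist1 above Prrx1. Whether reads were counted over exons or whole genes is not given in the sources used here, and in nuclear RNA that affects such levels.

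**Figure D3:**
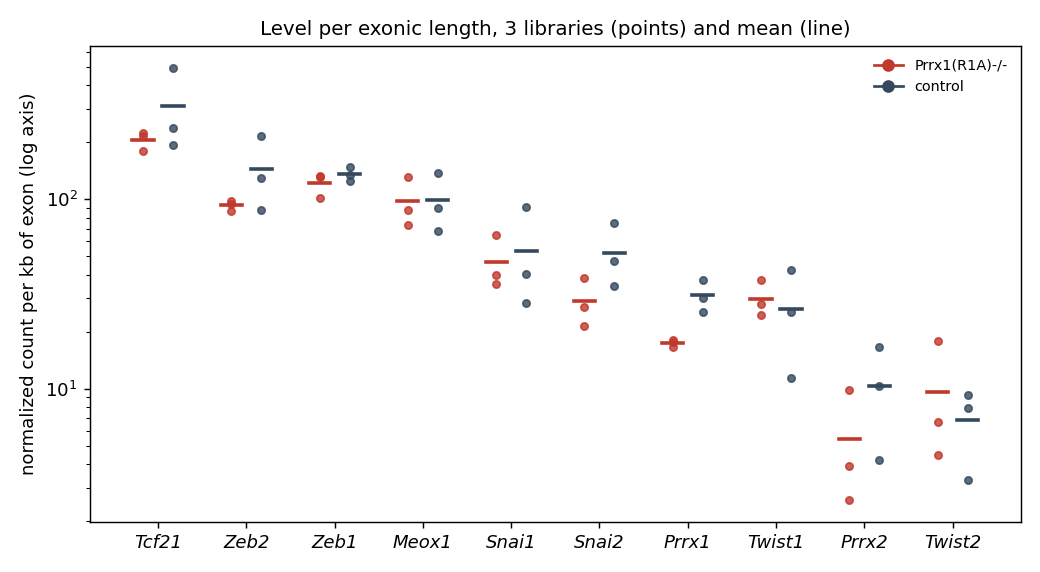
Normalized count per kilobase of exon on a log axis, for 3 libraries (points) and their mean (line) in Prrx1(R1A)-/- (left of each pair) and control nuclei, ordered by the control mean. Tcf21 is highest in both, and Prrx1(R1A)-/- points for Prrx1 lie together below those of the controls.

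Because the summed fibroblast markers lay lower in Prrx1(R1A)-/- libraries, each gene was also set against their summed level. Per 1000 normalized counts of the 20 markers, Prrx1 had 3.34, 3.39 and 3.30 counts in Prrx1(R1A)-/- libraries, against 3.83, 4.25 and 4.11 in controls. The groups were still separate, and the difference was −0.28 on the log2 scale (SD 0.019 and 0.077 in Prrx1(R1A)-/- and control libraries; exact permutation p = 0.1, the smallest possible). Of all genes, 0.816% were lower in this ratio without overlap and 33.5% were higher. A lower marker sum raises the ratio of any gene in Prrx1(R1A)-/- libraries, so these shares are partly set by that sum. Gsn, which encodes the actin-severing protein gelsolin, made up 27.2 to 35.3% of the sum. Without it Prrx1 had 4.88, 4.67 and 4.54 counts per 1000 in Prrx1(R1A)-/- libraries, against 5.91, 5.87 and 5.89 in controls, a difference of −0.33, where 1.06% of genes were lower without overlap. As the median of the ratios to single markers the difference was −0.55, and without control replicate 3 it was −0.27 against the full sum. The set without Gsn was chosen after seeing the data.

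No other of the 10 genes was lower without overlap in that ratio. Tcf21 had 8.72, 8.87 and 7.64 counts per 1000 in Prrx1(R1A)-/- libraries, against 10.7, 7.13 and 6.60 in controls. Zeb2 had 32.5, 32.9 and 31.2 in Prrx1(R1A)-/- libraries, against 39.9, 32.8 and 25.4 in controls. For both the Prrx1(R1A)-/- libraries lay inside the control range. Twist1 had 0.758, 0.691 and 1.10 in Prrx1(R1A)-/- libraries, against 0.638, 0.523 and 0.270 in controls, and was higher without overlap, as were 33.5% of all genes; its groups overlapped once Gsn was left out.

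**Figure D4:**
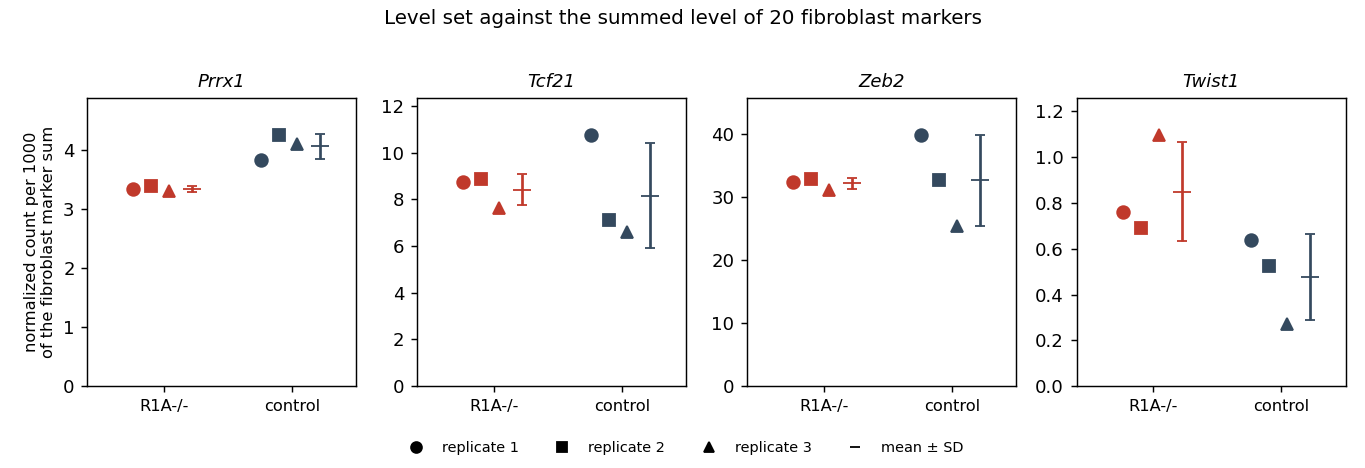
Normalized counts per 1000 of the summed level of 20 fibroblast markers, by library (circles, squares and triangles are replicates 1, 2 and 3, bars the mean ± SD of 3), on linear axes from 0. Prrx1 remains apart between the groups, at 3.30 to 3.39 in Prrx1(R1A)-/- and 3.83 to 4.25 in control libraries, and Tcf21 and Zeb2 are not.

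Genes whose levels followed Prrx1 most closely were sought among 8132 others with a mean of at least 100, by the root mean square difference of centred log2 values over the 6 libraries. The 5 closest were the lysosomal protease gene Ctsb (0.066), the folate receptor gene Folr2 (0.075), the elastic fibre gene Fbln5 (0.075), the sialic acid esterase gene Siae (0.084) and the nucleotide sugar transporter gene Slc35b1 (0.091). Ctsb had 1740, 1628 and 1519 normalized counts in Prrx1(R1A)-/- nuclei, against 3501, 2505 and 2345 in controls. Fbln5 had 161.8, 146.4 and 150.6 in Prrx1(R1A)-/- nuclei, against 359.9, 248.7 and 228.4 in controls. Like Prrx1, both were tight in Prrx1(R1A)-/- libraries and highest in control replicate 1, which follows from their choice by these same values. None of the 5 passed limma's test (adjusted p 0.243 to 0.394). Ctsb, Folr2 and Siae share exonic bases with opposite-strand genes. Among the 10, Zeb2 (0.260) and Tcf21 (0.318) were the nearest to Prrx1, with 226 and 537 of the 8132 genes nearer.

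Other transcription factors of mesenchyme had a median log2 fold change below 0 with all libraries and near 0 without control replicate 1. Of 40 listed, 28 were tested. By limma 0 passed, 1 lay below 0 at an unadjusted p under 0.05, and 22 of 28 lay below 0, with a median of −0.18. Over all genes 5.25% were lower at that level and 50.3% lay below 0. Runx1, a regulator of blood formation also expressed in stressed heart, had 97.7, 205.2 and 132.4 normalized counts in Prrx1(R1A)-/- nuclei against 471.9, 256.1 and 183.2 in controls (log2 fold change −1.02 ± 0.39, adjusted p = 0.351, with Gm26626 on the other strand). Hand2, a bHLH factor of heart and limb with the antisense gene Hand2os1, had 492.5 ± 152.8 normalized counts in Prrx1(R1A)-/- nuclei and 348.0 ± 101.7 in controls (SD, n = 3 each), a log2 fold change of 0.50 ± 0.30. Without control replicate 1 the median was 0.0063, with 14 of 26 above 0, and Wt1, a factor of the epicardium, passed upward (0.95 ± 0.22, adjusted p = 0.020 by limma), a gene named after its value was seen; 9.16% of all genes passed there.

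Partners and inhibitors of the bHLH proteins were led by the Id genes. Of 10 listed, 8 were tested, 7 were below 0 and 0 passed by limma, with a median of −0.52. Over all genes 50.3% lay below 0, and without control replicate 1 the median was −0.32. Id1, an HLH protein without a DNA-binding region that sequesters E proteins, had 479.9, 345.6 and 291.1 normalized counts in Prrx1(R1A)-/- nuclei, against 739.9, 629.9 and 798.6 in controls. The groups were separate. By limma Id1 had a log2 fold change of −0.98 ± 0.25 (adjusted p = 0.187), which was −0.96 and passed without control replicate 1 (adjusted p = 0.025), where 9.16% of all genes passed. In the authors' deposited table the adjusted p of Id1 is 0.0454. Id3, of the same family, had a log2 fold change of −0.69 ± 0.34, and −0.23 ± 0.18 without control replicate 1. Its relative Id2 had −0.73 ± 0.29 (adjusted p = 0.364 by limma). With all libraries the E protein genes Tcf3 (0.09), Tcf4 (−0.13) and Tcf12 (−0.32) were nearer to 0. Without control replicate 1 Id2 had −0.65, Tcf3 0.33, Tcf4 −0.15 and Tcf12 −0.28. In that setting Tcf3 and Tcf12 lay further from 0 than Id3. Id4 and Msc were also tested, and without control replicate 1 they had −0.37 ± 0.67 and −0.43 ± 0.53.

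Of 29 effectors of epithelial-mesenchymal transition, 27 were tested, 21 lay below 0, 6 of these had an unadjusted p under 0.05 and 0 passed by limma, with a median of −0.31. Over all genes 50.3% lay below 0, 5.25% were lower at an unadjusted p under 0.05 and 0.0137% passed. The list pools epithelial genes, such as Cdh1, Epcam, Cldn1 and Ocln, with mesenchymal genes, such as Vim, Fn1 and Postn. Its counts and median therefore give no direction of a transition. The gelatinase gene Mmp2 had 969.5 ± 93.0 normalized counts in Prrx1(R1A)-/- nuclei and 1613 ± 233 in controls (SD, n = 3 each; log2 fold change −0.73 ± 0.21, adjusted p = 0.234). The matrix glycoprotein gene Sparc had 1301 ± 229 in Prrx1(R1A)-/- nuclei and 2061 ± 248 in controls (−0.67 ± 0.21, adjusted p = 0.284). Cdh1, which encodes the E-cadherin that Snail and ZEB factors repress, was too low to test, at 2.51 counts in Prrx1(R1A)-/- nuclei and 1.09 in controls, and Vim, the intermediate filament gene of mesenchyme, had a log2 fold change of −0.31 ± 0.19. Without control replicate 1, 5 of the 27 passed by limma, Postn, Sparc, Mmp2, Itgb1 and Tgfbr1, all below 0 and named here after their values were seen; 9.16% of all genes passed in that setting.

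Markers of the cells that the nuclei could hold passed in no list by limma over all genes; at an unadjusted p under 0.05, 6.67% of all genes lay higher and 5.25% lower. Among fibroblast markers the median log2 fold change was −0.43, and 19 of 20 lay below 0, of which 7 had an unadjusted p under 0.05. The matrix proteoglycan genes Dcn (−1.22 ± 0.24) and Lum (−1.32 ± 0.28) had the smallest p and were the 2 with a lower log2 fold change than Prrx1. The cardiomyocyte median was 1.10, and 11 of 12 lay above 0, of which 7 had an unadjusted p under 0.05. The sarcomere genes Tnnt2 (1.48 ± 0.27) and Myh6 (1.59 ± 0.31, with Gm49130 on the other strand) led, and the 1 below 0 was Pcm1 (−0.28 ± 0.22), the gene of the protein used for sorting. All 12 immune markers lay below 0, at a median of −0.56, and 6 had an unadjusted p under 0.05, led by the lysosomal protease gene Ctss (−2.06 ± 0.55) and the Fc receptor gene Fcgr3 (−1.10 ± 0.33). Without control replicate 1 the immune median was −0.29, with 10 of 12 below 0. The cardiomyocyte median in that setting was 0.77, with 9 of 12 above 0. Pcm1 (−0.45), Nppa (−0.15) and Sln (−0.11) then lay below 0, and Myl4 (0.04) and Myl7 (0.28) above. Quantile scaling gave a cardiomyocyte median of 0.41. Endothelial and endocardial genes had a median of −0.17 (Esam −0.54 ± 0.22, Tie1 0.48 ± 0.21), and epicardial genes had −0.17 as well (Aldh1a2 −0.69 ± 0.22, Gpm6a −0.59 ± 0.23). Smooth muscle and pericyte genes had −0.07 (Cspg4 1.13 ± 0.30, Abcc9 −0.75 ± 0.22, with 5330439B14Rik on the other strand). The endothelial median was −0.33 with quantile scaling, and without control replicate 1 the epicardial median was 0.09 and the smooth muscle median 0.14. In the authors' deposited table, adjusted p was under 0.05 for 227 of the 1900 genes listed. The 1900 are a part of the 26332 genes with values, so that is no share over all genes. Among marker genes listed there, the largest unadjusted p by its Wald test was 0.0487 (Mrc1). Those with an adjusted p under 0.05 included 6 of 12 cardiomyocyte and 3 of 20 fibroblast markers, with 7 and 8 listed. They also included 1 of 12 immune and 1 of 10 smooth muscle markers, with 7 and 2 listed. Among them were Myh6 (9.44e-08), Tnnt2 (3.81e-05), Dcn (0.00106), Lum (0.00348) and Ctss (0.00945). Without control replicate 1, 5 of 20 fibroblast, 5 of 12 cardiomyocyte and 0 of 12 immune markers passed by limma, where 9.16% of all genes did. The part of these cells in the values of the 10 genes was not tested, beyond the ratio to fibroblast markers above.

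**Figure D5:**
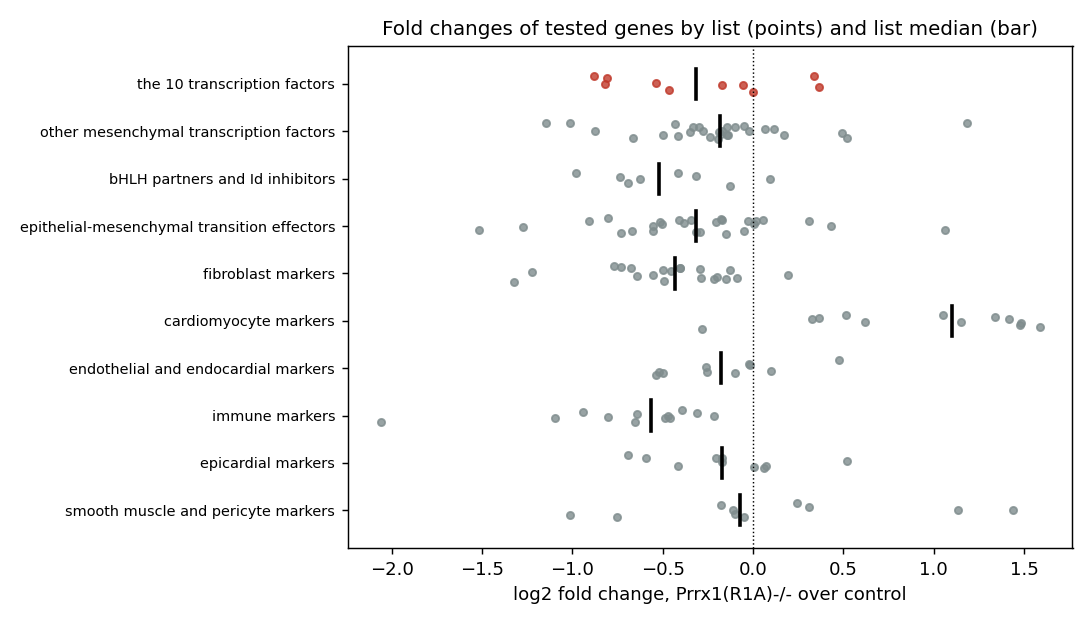
Log2 fold change of each tested gene, Prrx1(R1A)-/- over control (points), by list, with the list median (bar). The 10 transcription factors have a median of −0.32, between fibroblast markers (−0.43) and the other mesenchymal factors (−0.18), while cardiomyocyte markers stand at 1.10.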

How the data were processed

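Per the submitters' processing notes, STAR and DESeq2 were used with mm10; neither versions nor the read counter and its strand setting are stated there. A deposited sheet holds a signal (normalized count) per gene and library. Apart from 1 value, dividing by the smallest value of its library turned each value into whole reads (tolerance 0.01), and reads were thus recovered and rounded for edgeR and DESeq2. A further 847 identifiers had no value. The authors' deposited table gives mean signal, log2 fold change with its standard error, Wald score, p-value, adjusted p-value and its −log10.

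The test was limma-trend (limma 3.58.1, R 4.3.3) on log2(normalized count + 1), genotype as the single term, two-sided, with Benjamini-Hochberg adjustment over 14584 genes; fold changes on this scale understate those of low genes. Alternatives were pseudocounts of 0.5 and 5, a filter at 50 or none, quantile and TMM scaling, edgeR 4.0.16, DESeq2 1.42.0, a replicate block, an Rn45s covariate, and leaving out each library. The ratio without Gsn was chosen after seeing the data. Gene positions and exonic lengths are from GENCODE M21 (GRCm38). Lists name all 10 genes and, of each other list, called genes and the 2 with the smallest p. Further genes, such as Id3, Tcf3, Tcf4, Tcf12, Vim, Cdh1 and Pcm1, were named outside that rule. The genes and lists were chosen with earlier results of these data known. Scripts were tested on simulated data. Depth was 10580961 to 14658584 reads per library; a count of 0 allows 3 reads, or 2.22 to 3.77 normalized counts, for counting error only. Each library is a separate mouse.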

Additional observations from a re-analysis of the deposited data

How the results depend on the processing

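Prrx1 stayed below 0 and did not pass under any of 16 alternatives, and 0 of the 10 genes passed under any of them. Prrx2, Tcf21, Snai2, Zeb1 and Zeb2 also kept their direction where tested; Prrx2 was not tested at a filter of 50 or without control replicate 1, control replicate 3 or Prrx1(R1A)-/- replicate 2, and Twist1 and Twist2 were not tested at that filter. Signs turned for Twist1, Twist2, Snai1 and Meox1. Leaving out 1 library gave −0.16 to 0.77 for Twist1, −0.18 to 0.78 for Twist2, −0.42 to 0.41 for Snai1 and −0.23 to 0.27 for Meox1. The Rn45s covariate gave −0.024 for Twist1 and 0.19 for Meox1, and quantile scaling gave 0.0088 for Snai1. The difference of Prrx1 relative to fibroblast markers was −0.32 to −0.25 when 1 library was left out, and its groups remained separate with every set of markers tried.

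Over all genes, limma called 2, against 0 with quantile scaling, 0 with edgeR, 0 with the replicate block, 244 with DESeq2 and 436 with the Rn45s covariate. Leaving out 1 library gave 0 to 1312 calls, the highest without control replicate 1. The cause was not tested. Over the genes tested, same-numbered libraries did not deviate together (correlations −0.11, −0.02 and −0.09). Differently numbered ones had −0.08 to 0.11. This gave no sign of pairs but cannot exclude them. With the replicate block Prrx1 had −0.82 (adjusted p = 0.470 by limma). Prrx2, Twist1 and Twist2 had 5 to 60 reads per library, and their libraries varied more than counting alone gives in both groups.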
